A study of Sus scrofa with 9 samples.

Results

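The response of pig cumulus cells to amphiregulin (AREG) and epiregulin (EREG) was read from 3 arrays that carried RNA of AREG/EREG-stimulated and of unstimulated cells side by side. They are all the arrays titled as this comparison among the 9 of the series, and each holds 19941 probes. Cumulus-oocyte complexes (COCs), the oocytes with the somatic cells that enclose them, came from ovaries of premature crossbred gilts (Landrace and Large White). Complexes from many follicles were pooled, so an RNA sample does not stand for 1 animal. They were kept for 3 h in medium with fetal calf serum, either with recombinant human AREG and EREG at 100 ng/ml each or with no addition (control). Oocytes were then removed by pipetting, and the RNA of the cumulus cells was amplified and labelled with a green or a red dye. There were 3 RNA samples per treatment, numbered as biological replicates 1, 2 and 3, and each was hybridized to 2 arrays. The dyes were swapped in replicate 2. The other 6 arrays set each of these samples against cells cultured with FSH at 100 ng/ml, the follicle-stimulating hormone, and entered the fit only to give an indirect ratio and the dye effect. For 1 channel, the AREG/EREG sample of the direct array of replicate 3, the treatment text names FSH, while the array's title, its other labels and the hybridization scheme name AREG/EREG, which was used. All ratios are AREG/EREG over control on the log2 scale, where 1 is a doubling.

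AREG and EREG are peptides of the epidermal growth factor (EGF) family. They are made as membrane-bound precursors, are shed by proteases, and bind the EGF receptor, a tyrosine kinase that signals through RAS and the MAP kinases ERK1 and ERK2. In the ovulating follicle they pass the signal of luteinizing hormone from mural granulosa cells to the cumulus, which then secretes a hyaluronan-rich matrix, expands, and permits the oocyte to resume meiosis. A wave of immediate-early transcription factors usually opens such a response, followed by genes of matrix, adhesion, proteolysis and steroid synthesis.

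Signals reached the level that the image analysis calls well above background in 77.1% to 95.6% of the probe spots, depending on array and dye, and no probe spot was saturated. The same criterion was met at 74% of the channels of the 60 negative control spots and at 2.96% of those of the 336 blank spots. A signal well above background is therefore reported below as a signal and not as proof that the named gene is transcribed. The direct arrays had outlier spots at 9.17%, 6.23% and 4.31%, which were set to missing. Across the tested probes, which are not independent, the log2 ratios of the direct arrays correlated with r = 0.604 between replicates 1 and 2, 0.808 between 1 and 3 and 0.743 between 2 and 3.

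AREG/EREG changed 3822 of the 19495 tested transcripts (19.6%), raising 1809 (9.28%) and lowering 2013 (10.3%) at an adjusted p under 0.01 in limma's moderated test, the rule for every call below. In RNA of whole samples such as this, fewer cells of a type and less RNA per cell cannot be told apart. With the arrays of each replicate combined into 1 value per RNA sample and the replicate number as a block, the number called was 2323. It was 2544 without replicate 1, 2078 without replicate 2 and 1591 without replicate 3. It fell to 506 with the direct arrays alone, 543 with the other 6 arrays alone and 388 with separate channels, where the channels of each RNA sample were averaged without regard to which samples shared an array. Rises made up 47.3% of the calls, but 53.3% without replicate 2 and 56.9% with the direct arrays alone, so the majority direction depends on the arrays used. Past 0.5 on the log2 scale there were 884 rises and 918 falls, past 1 there were 278 and 181, past 2 there were 43 and 19, and past 3 there were 6 and 5. Past 1.5, the size at which the study drew its lists, 139 transcripts were called (0.713%), 93 upward (0.477%) and 46 downward (0.236%). Among called transcripts measured on all 3 direct arrays, the ratio had 1 sign on each of them for 1658 of 1675 rises and 1872 of 1912 falls. For all tested transcripts on these arrays that share was 48.3%, and the calls rest in part on the same arrays. All 425 such transcripts called past 1 had 1 sign. Calls were fewest among dim probes. With the probes ranked by mean signal into 4 groups of equal size, 6.73% of the dimmest group were called and 0 passed 1.5, against 20.9%, 26.9% and 23.9% in the next ones.

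**Figure D1:**
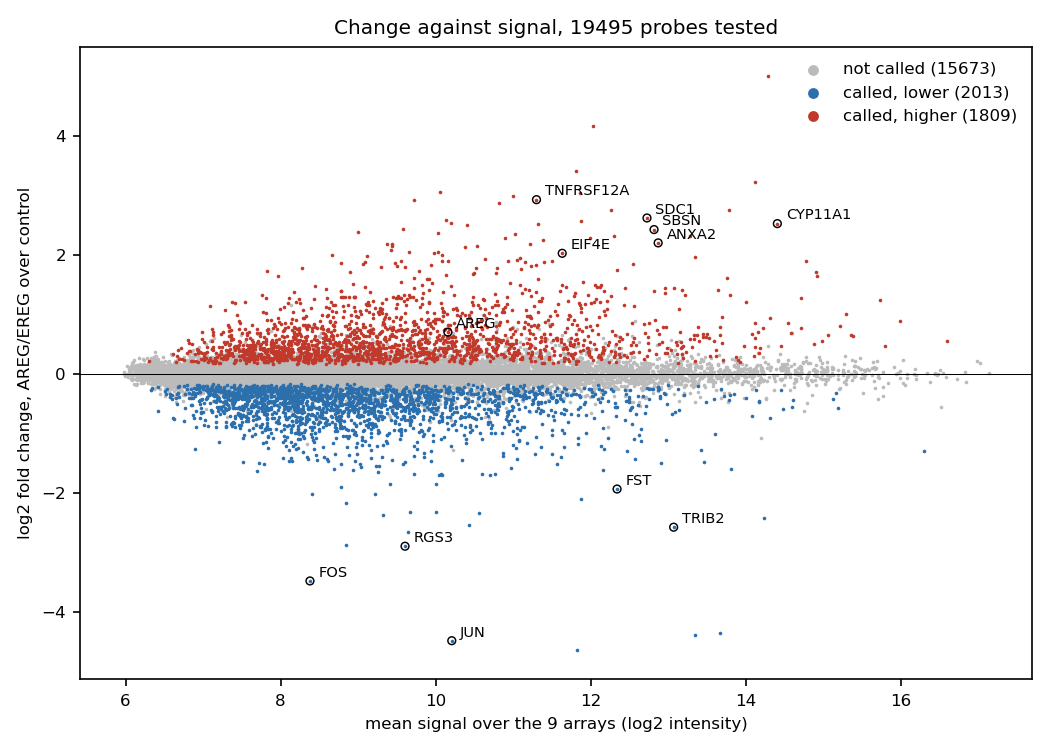
Log2 fold change of AREG/EREG over control (vertical axis) against mean signal over the 9 arrays (horizontal axis, log2 intensity) for the 19495 tested probes. Red points are the 1809 called higher, blue points the 2013 called lower and grey points the rest, and circles mark named genes, from *TNFRSF12A* at 2.93 to *JUN* at -4.49.

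Only 226 of the 19941 probes could be given a gene name, 45 because the study paired the probe with a symbol and 181 through a RefSeq accession. The authors chose the 45 with these arrays in view, and 42 of them were called (26 up, 16 down), so their counts are a description and no independent evidence of a direction. All lists of genes below were likewise drawn up with earlier results of these data known. Most called members of these lists are among the 45, of which 93.3% were called, so a list's count largely restates that choice. The number of paired members is given with most lists, to be read beside the 9.28% of all probes called higher and the 10.3% called lower. Of the 93 rises past 1.5 only 13 have a name, and of the 46 falls 9 do.

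Genes of the plasminogen system, which dissolves fibrin and matrix, were higher in 2 of the 4 members reported, and 0 fell, with a median of 0.60 against 0.00 for all tested probes. The study paired 3 of the 4. *ANXA2*, annexin A2, a cell surface receptor for plasminogen and its tissue activator, had ratios of 2.33, 2.15 and 2.15 and a fit of 2.20 (SE 0.06, adjusted p = 2.08e-08). *PLAT*, the tissue activator itself, rose less, by 0.81 (SE 0.16, adjusted p = 0.00459, 8 arrays), with ratios of 0.48, 0.93 and 1.09. Its call was lost without replicate 2 (0.69, adjusted p = 0.066), without replicate 3 (0.79, adjusted p = 0.0208) and with the replicate block (0.79, adjusted p = 0.0317), and over all alternatives its adjusted p ran from 0.00132 to 0.215. *PLAUR*, the receptor of the urokinase activator, had 0.40 (SE 0.15, adjusted p = 0.0769) and was not called, nor was *MMP14*, a membrane-bound matrix protease, at 0.01 (SE 0.05, adjusted p = 0.935).

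Genes of adhesion, the cytoskeleton and the SRF and YAP transcription programs were called higher in 7 of 8 tested members (9.28% of all probes were), and none fell. The study paired 6 of the 8, and the median of the list was 1.80. *TNFRSF12A* encodes FN14, the receptor of the cytokine TWEAK, and had direct ratios of 2.64, 2.60 and 3.06 and a fit of 2.93 (SE 0.11, adjusted p = 2.85e-07). *SDC1*, syndecan 1, a heparan sulfate proteoglycan of the cell surface, had 2.53, 3.02 and 2.33 on the direct arrays and 2.62 in the fit (SE 0.28, adjusted p = 9.67e-05). The replicates of *CTGF*, the matrix-associated growth factor also named CCN2, were further apart. Its ratios were 2.72 and 1.66 on the direct arrays of replicates 1 and 2, with an outlier spot in replicate 3. The 8 arrays left gave 2.38 (SE 0.31, adjusted p = 0.000524), and without replicate 1 the call was lost at 2.03 (adjusted p = 0.037, the highest of its alternatives, against a lowest of 9.56e-05). In the study's real-time PCR *TNFRSF12A* and *CTGF* were also higher with AREG/EREG, but the paper reports *SDC1* as unaffected there.

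The remaining rises in this group were smaller. *ANXA1*, annexin A1, a phospholipid-binding protein, had ratios of 2.01, 1.81 and 1.73 and a fit of 1.85 (SE 0.14, adjusted p = 1.2e-05). *MARCKSL1*, an actin-binding substrate of protein kinase C, had 1.33, 1.52 and 2.11, and a fit of 1.74 (SE 0.11, adjusted p = 4.14e-06). Both thus sat well above 0 on every direct array. The study's real-time PCR also had *MARCKSL1* higher with AREG/EREG, but *ANXA1* significantly lower. *SDC4*, syndecan 4, a component of focal adhesions, rose by 0.74 (SE 0.11, adjusted p = 0.000799). Its call was lost without replicate 2 (0.62, adjusted p = 0.0112) and without replicate 3 (0.78, adjusted p = 0.0157), in a range of 0.000171 to 0.0582 over the alternatives. *ITGB1*, the integrin subunit beta 1, was measured on 6 arrays and rose by 0.51 (SE 0.08, adjusted p = 0.00304). That call did not survive the loss of replicate 1 (0.61, adjusted p = 0.012), replicate 2 (0.51, adjusted p = 0.0102) or replicate 3 (0.46, adjusted p = 0.198), nor the replicate block (0.63, adjusted p = 0.0354), and its adjusted p ran from 0.000262 to 0.935. The caveolae protein *CAV1* had -0.02 (SE 0.17, adjusted p = 0.939).

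**Figure D2:**
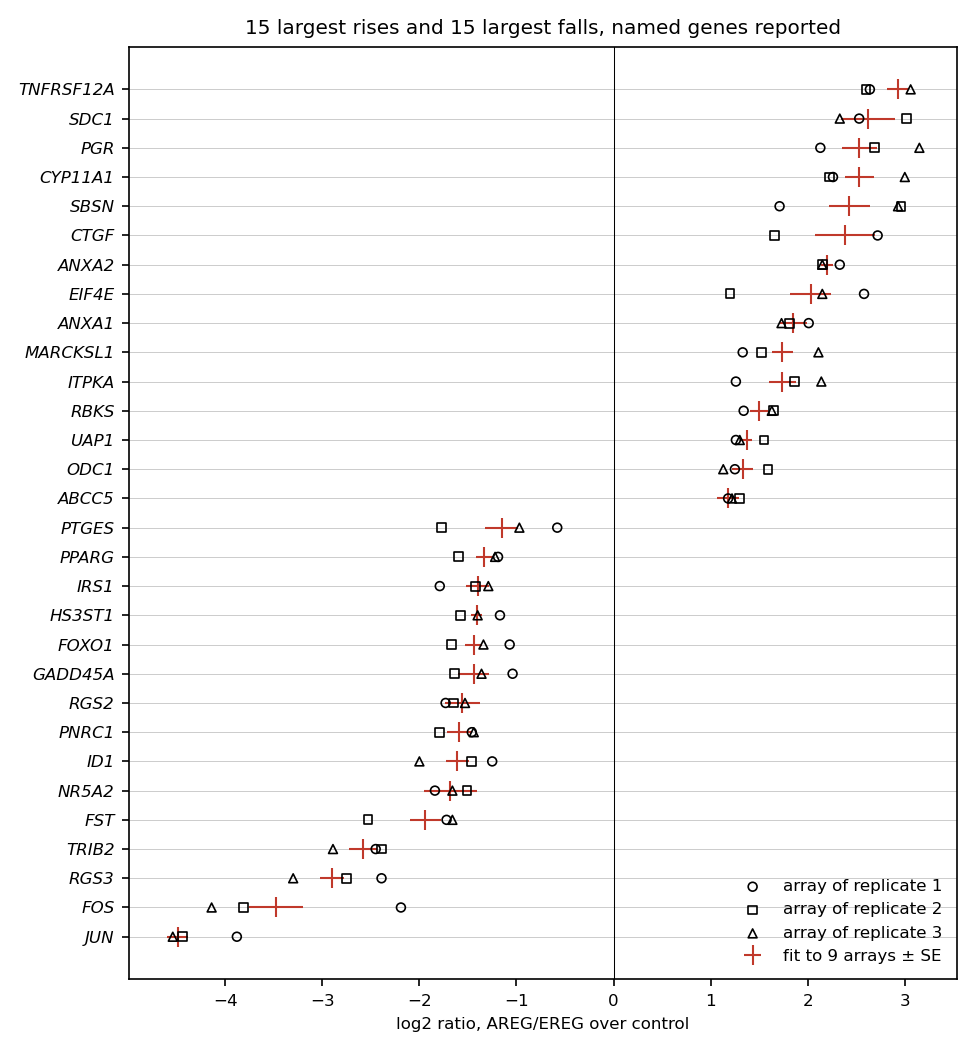
Log2 ratios of AREG/EREG over control for the 15 named genes reported with the largest rise and the 15 with the largest fall. Open symbols are the direct arrays of replicates 1 to 3, and red bars are the fit to the arrays with a value and its standard error. Each direct ratio lies on the same side of 0 as the fit, and the direct ratios of *FOS*, *EIF4E* and *SBSN* lie furthest apart. *CTGF* has no direct ratio in replicate 3.

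For the expanding matrix, 3 of 6 tested members rose and 1 fell, with a median of 0.60, and 5 of the 6 were paired by the study. *UAP1*, which makes UDP-N-acetylglucosamine, a building block of hyaluronan, had direct ratios of 1.26, 1.55 and 1.30 and a fit of 1.37 (SE 0.06, adjusted p = 6.7e-07). *HAS2*, the hyaluronan synthase, had 0.19, 0.88 and 1.20, lowest in replicate 1, and a fit of 0.86 (SE 0.15, adjusted p = 0.00174). *TNFAIP6*, whose protein links heavy chains to hyaluronan, had 0.59, 1.79 and 0.87, highest in replicate 2, and 1.06 in the fit (SE 0.18, adjusted p = 0.00177). For the latter pair the calls did not outlast the loss of some replicates, while the values stayed above 0 without each replicate. The call of *HAS2* was lost without replicate 2 (0.86, adjusted p = 0.0193) and without replicate 3 (0.68, adjusted p = 0.0369), over a range of 0.000675 to 0.0906. That of *TNFAIP6* was lost without replicate 1 (1.26, adjusted p = 0.0106) and without replicate 3 (1.20, adjusted p = 0.0168), over a range of 6.16e-05 to 0.248.

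*PTGES*, the synthase that turns prostaglandin H into prostaglandin E, was the matrix and prostaglandin gene that fell. Its ratios were -0.58, -1.77 and -0.97, all below 0, and the fit was -1.15 (SE 0.17, adjusted p = 0.000741). Without replicate 3 its call was lost (-1.26, adjusted p = 0.0117), and the alternatives spanned 0.000168 to 0.0138. The protease gene *ADAMTS1*, whose product cleaves versican, had 0.34 (SE 0.13, adjusted p = 0.0822). Over the alternatives its value ran from 0.14 to 0.66 (adjusted p from 0.0472 to 0.677). Its probe was well above background in 5 of 6 AREG/EREG channels and 4 of 6 control channels. *HAPLN1*, the link protein of hyaluronan and proteoglycans, had -0.13 (SE 0.04, adjusted p = 0.0431). *HS3ST1*, a heparan sulfate sulfotransferase whose product binds antithrombin, is on no list and fell by 1.41 on the log2 scale (SE 0.06, adjusted p = 6.7e-07). Its direct ratios were -1.17, -1.58 and -1.40.

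Genes of steroid synthesis and progesterone signaling went both ways, with 3 rises and 1 fall among 7 tested, of which the study paired 4, and a median of 0.09. *CYP11A1*, the cholesterol side-chain cleavage enzyme, had direct ratios of 2.26, 2.22 and 3.00, and *PGR*, the progesterone receptor, 2.13, 2.69 and 3.15. Both were above 2 on each direct array. The fit gave 2.53 for each, with an SE of 0.15 over 8 arrays for *CYP11A1* (adjusted p = 7.16e-06) and 0.18 for *PGR* (adjusted p = 8.92e-06). *HSD17B7*, an enzyme of cholesterol synthesis that can also reduce estrone, had 1.13, 0.89 and 0.64 and a fit of 0.93 (SE 0.11, adjusted p = 0.000224). Its call was lost with separate channels (0.92, adjusted p = 0.0319), with the direct arrays alone (0.89, adjusted p = 0.0198) and with the other 6 alone (1.04, adjusted p = 0.0281), in a range of 4.88e-05 to 0.0319. *NR5A2*, the nuclear receptor LRH-1, an activator of steroidogenic genes in granulosa cells, fell, with ratios of -1.84, -1.51 and -1.66 and a fit of -1.68 (SE 0.27, adjusted p = 0.00105). Without replicate 3 that call was lost (-1.67, adjusted p = 0.0205, with a range of 0.000105 to 0.139 over the alternatives). In the study's real-time PCR *NR5A2* did not change significantly with AREG/EREG, while *CYP11A1* and *PGR* were higher. *ESR2*, *CYP21A2* and *SULT1E1*, an estrogen receptor, a steroid hydroxylase and an estrogen sulfotransferase, lay between 0.04 and 0.09 and were not called. The membrane progestin receptor gene *PAQR8* is not on this list. It was called lower, at -0.83 (SE 0.08, adjusted p = 6.58e-05), and is described with the genes named by accession alone.

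On a list of immediate-early genes, which holds transcription regulators and the pseudokinase gene *TRIB2*, 4 of 6 tested members were lower at 3 h (10.3% of all probes were) and 1 was higher (9.28%), with a median of -2.08. The study paired 5 of the 6, and the member it did not pair, *KLF4*, was not called. Without *TRIB2*, 3 of 5 fell and the median was -1.59. *JUN*, a subunit of AP-1, had direct ratios of -3.88, -4.44 and -4.54, and *FOS*, its partner, -2.19, -3.81 and -4.14. The fit gave -4.49 for *JUN* (SE 0.11, adjusted p = 2.08e-08) and -3.48 for *FOS* (SE 0.28, adjusted p = 1.83e-05), for which 4 of 6 AREG/EREG channels and 6 of 6 control channels were well above background. *TRIB2*, of the tribbles family, had -2.45, -2.39 and -2.89 and a fit of -2.58 (SE 0.14, adjusted p = 1.83e-06). *PNRC1*, a nuclear receptor coactivator, fell by 1.59 on the log2 scale (SE 0.13, adjusted p = 1.8e-05). All of these falls showed on every direct array. In the study's real-time PCR at 3 h, however, *FOS* was significantly higher with AREG/EREG than in control. There *JUN* and *PNRC1* were lower and *TRIB2* did not change significantly, while the paper's PCR time course describes *JUN* as unaffected. The reason for the difference was not tested.

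*CEBPB*, a leucine zipper factor needed for ovulation in mice, was the member that rose. It was measured on 6 arrays, with ratios of 0.26, 0.54 and 0.26 and a fit of 0.34 (SE 0.06, adjusted p = 0.00661). Leaving out replicate 1 (0.33, adjusted p = 0.032), replicate 2 (0.28, adjusted p = 0.0556) or replicate 3 (0.40, adjusted p = 0.0632) ended the call, as did the replicate block (0.28, adjusted p = 0.191), and the alternatives spanned 0.00405 to 0.754. *KLF4*, a zinc finger factor, had -0.18 (SE 0.07, adjusted p = 0.0918). Without replicate 1 it was called (-0.26, adjusted p = 0.00978, the lowest of its alternatives, against a highest of 0.485).

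In insulin and FOXO signaling 3 of 5 tested members fell (10.3% of all probes did) and none rose, with a median of -1.33, and 4 of the 5 were paired by the study. *IRS1*, the docking protein of the insulin and IGF-1 receptors, had direct ratios of -1.79, -1.42 and -1.29 and a fit of -1.40 (SE 0.12, adjusted p = 2.36e-05). *FOXO1*, a transcription factor that insulin and growth factor signaling keeps out of the nucleus, had -1.07, -1.67 and -1.34 and a fit of -1.44 (SE 0.09, adjusted p = 3.75e-06). *PPARG*, a lipid-sensing nuclear receptor, had -1.19, -1.60 and -1.22 and a fit of -1.33 (SE 0.09, adjusted p = 5.5e-06). The falls of these genes were similar in size, and no direct ratio of any of them lay above -1.07. The study's real-time PCR showed no significant change of *FOXO1* with AREG/EREG. *FOXO3*, a close relative of *FOXO1*, had 0.13 (SE 0.09, adjusted p = 0.336), and the leptin receptor *LEPR* had 0.07 (SE 0.04, adjusted p = 0.286).

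Among genes of G protein, FSH and cAMP signaling 3 fell and 1 rose of 7 tested, of which the study paired 3, with a median of -0.03. *RGS3* and *RGS2* encode regulators that switch off G proteins. *RGS3* had direct ratios of -2.39, -2.75 and -3.30 and a fit of -2.90 (SE 0.12, adjusted p = 6.32e-07). *RGS2* had -1.73, -1.65 and -1.53 and a fit of -1.56 (SE 0.18, adjusted p = 0.000183). Its call was lost with separate channels (-1.64, adjusted p = 0.0123) and with the 6 indirect arrays alone (-1.38, adjusted p = 0.0805), over a range of 3.08e-05 to 0.0805. *ITPKA*, a kinase of inositol trisphosphate that also bundles actin, rose, with 1.26, 1.86 and 2.14 and a fit of 1.74 (SE 0.14, adjusted p = 1.55e-05). In the study's real-time PCR *RGS3* was also lower and *ITPKA* higher with AREG/EREG, but *RGS2* was significantly higher. *GNAS*, the stimulatory G protein subunit, had 0.31 (SE 0.09, adjusted p = 0.0339). With outlier spots kept it was called (0.30, adjusted p = 0.00807, the lowest of its alternatives, against a highest of 0.949). The receptors of oxytocin and prolactin, *OXTR* and *PRLR*, had -0.03 and 0.01. *FSHR* is described with the cell type markers.

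The list of TGF-beta, activin and BMP signaling, which also holds the fibroblast growth factor gene *FGF9*, had 2 falls and no rise among 6 tested, with a median of -0.23, and the study paired 2. Without *FGF9* the median of the other 5 was -0.48. *FST* encodes follistatin, which binds activin, and had direct ratios of -1.72, -2.53 and -1.66 and a fit of -1.94 (SE 0.16, adjusted p = 2.16e-05). *ID1*, an inhibitor of helix-loop-helix factors and a target of BMP signals, had -1.25, -1.46 and -2.00 and a fit of -1.61 (SE 0.12, adjusted p = 1.34e-05). Neither *FST* nor *ID1* changed significantly with AREG/EREG in the study's real-time PCR. *FGF9* had 0.16 (SE 0.27, adjusted p = 0.707), and *ACVR2B*, an activin receptor, 0.01 (SE 0.04, adjusted p = 0.866).

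All 3 tested genes of polyamine metabolism and translation rose (9.28% of all probes did). The study paired all 3 with these arrays in view. *EIF4E*, the cap-binding protein that starts translation, had direct ratios of 2.58, 1.20 and 2.15, lowest in replicate 2, and a fit of 2.03 (SE 0.21, adjusted p = 7.88e-05). Its rise in the study's real-time PCR was not significant. *ODC1*, ornithine decarboxylase, the first enzyme of the polyamine pathway, had 1.25, 1.59 and 1.13 and a fit of 1.33 (SE 0.11, adjusted p = 3.84e-05, 8 arrays). *SMOX*, spermine oxidase, had 0.54, 1.10 and 0.36 and a fit of 0.74 (SE 0.14, adjusted p = 0.00259). The call of *SMOX* was lost without replicate 1 (0.72, adjusted p = 0.0336), without replicate 2 (0.56, adjusted p = 0.0347) and with the replicate block (0.74, adjusted p = 0.0106), in a range of 0.000112 to 0.0777. Of the genes of the cell cycle, 2 were tested, both paired by the study. *GADD45A*, a growth arrest gene, fell by 1.44 on the log2 scale (SE 0.16, adjusted p = 0.000137) and *PCNA*, the clamp of DNA polymerase, by 1.02 (SE 0.15, adjusted p = 0.000559). Their direct ratios were -1.04, -1.64 and -1.36 for *GADD45A* and -0.86, -1.28 and -1.11 for *PCNA*. The study's real-time PCR showed no significant change of *GADD45A* with AREG/EREG.

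Several named rises belong to small or single-member lists or to none. *SBSN*, suprabasin, known from the epidermis, had direct ratios of 1.71, 2.96 and 2.93 and a fit of 2.43 (SE 0.21, adjusted p = 9.71e-05) over 7 arrays. The call was lost with the direct arrays alone (2.64, adjusted p = 0.0103) and with separate channels (1.85, adjusted p = 0.0787), over a range of 2.62e-05 to 0.0787. *RBKS*, ribokinase, had 1.34, 1.65 and 1.63 and rose 2.83-fold in the fit (SE 0.09 on the log2 scale, adjusted p = 3.93e-06). *ABCC5*, an exporter of cyclic nucleotides, rose by 1.18 (SE 0.11, adjusted p = 3.16e-05) and *PRDX2*, a peroxiredoxin that removes hydrogen peroxide, by 0.61 (SE 0.06, adjusted p = 4.52e-05). Only *AREG* represents the EGF receptor system, 1 of the 30 genes on that list. Its direct ratios were 0.30, 0.55 and 1.10, highest in replicate 3, for a fit of 0.70 (SE 0.10, adjusted p = 0.000625). That call was lost with the direct arrays alone (0.62, adjusted p = 0.0983) and with separate channels (0.70, adjusted p = 0.0153), in a range of 0.000318 to 0.0983.

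**Figure D3:**
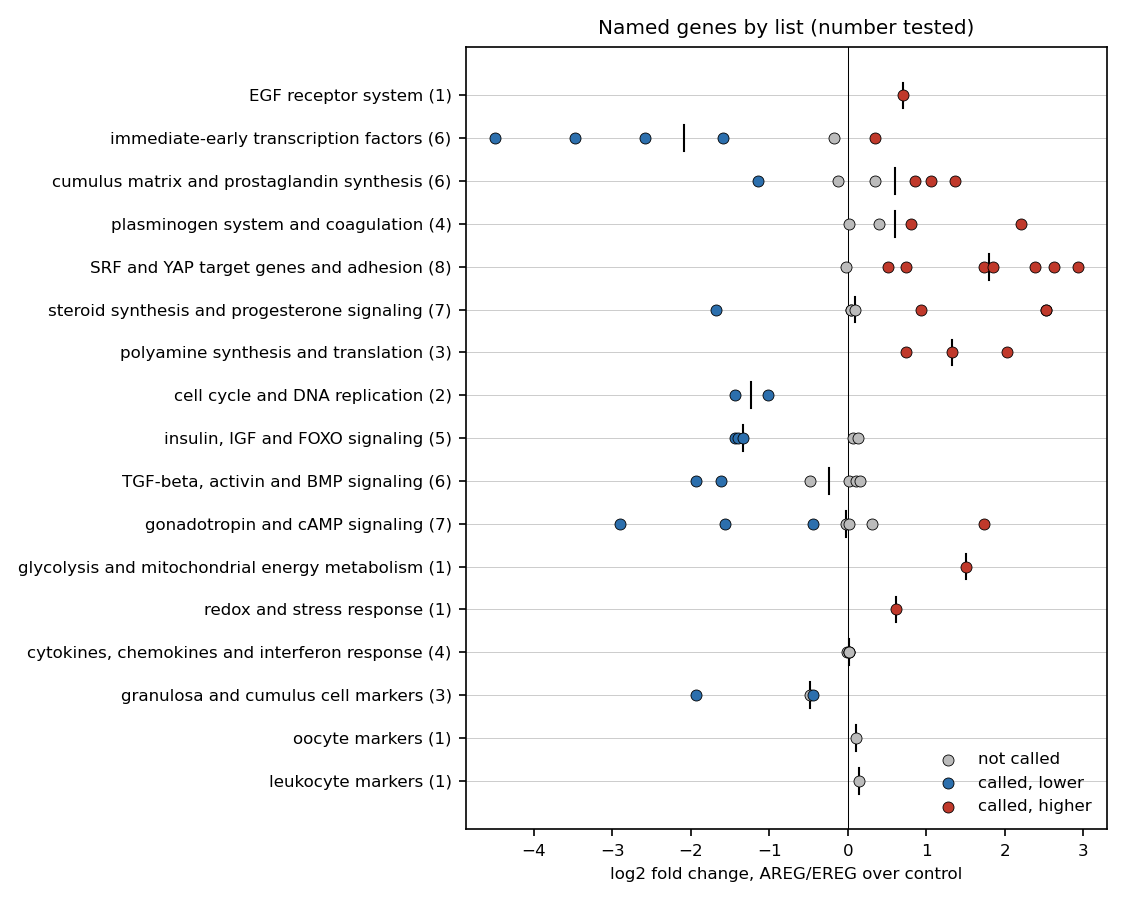
Log2 fold change of AREG/EREG over control (horizontal axis) for the tested members reported from 17 lists, with the number tested in brackets. Points are genes, coloured by call, and bars are list medians. The 8 members of the adhesion list lie between -0.02 and 2.93, and the 5 of insulin, IGF and FOXO signaling between -1.44 and 0.13.

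Probes named through a RefSeq accession alone were not picked for their values here. The probe of *JUN* carries such an accession too, but is counted with the 45 that the study paired. Of the 181, 168 were tested and 15 were called (8.93%, against 19.6% of all probes), 7 up and 8 down, and 0 were called past 1 on the log2 scale (2.35% of all probes were). With *JUN* 16 of 169 were called, 1 of them past 1. Their median absolute change was 0.0696, below the 0.106 of all tested probes. The largest rise among them was that of *AVPR2*, the vasopressin receptor of the kidney, with ratios of 0.66, 0.53 and 0.69 and a fit of 0.63 (SE 0.05, adjusted p = 9.75e-06). *POMC*, the precursor of pituitary corticotropin, fell furthest, with -1.12, -0.55 and -0.81 and a fit of -0.85 (SE 0.11, adjusted p = 0.00028). *PAQR8*, a membrane progestin receptor, had -0.50, -0.92 and -1.02 and a fit of -0.83 (SE 0.08, adjusted p = 6.58e-05). Without replicate 3 the call of *POMC* was lost (-0.84, adjusted p = 0.0134, range 0.000142 to 0.0359). In all, 13 of the 15 calls were lost without at least 1 replicate, and those of *AVPR2* and *PAQR8* were kept.

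Signal at such probes does not by itself identify the transcript. Of the 181, 140 were well above background in all 12 channels and 1 in 0. After the values were seen, 8 RefSeq-named genes known from other tissues were looked up (*PRM1* and *PRM2* of sperm, *CSN1S1* and *LALBA* of milk, *HCRT* of the hypothalamus, *OPN1SW* of the retina, *MYH7* of heart and muscle, *CYP8B1* of the liver). Each was well above background in all 12 channels. Their log2 fold changes lay between -0.11 and 0.08, and 0 were called, against 19.6% of all probes. Others of this kind, chosen in the same way, were dim. *KCNA5*, a potassium channel of heart muscle, met the criterion in 0 of 12 channels, *ELSPBP1* of the epididymis in 2 and *OBP*, an odorant-binding protein, in 3. These choices left out *AVPR2* of the kidney and *POMC* of the pituitary, described above. Both were well above background in all 12 channels and were called, at 0.63 and -0.85. The list of cytokines, chemokines and interferon response had 4 tested members, *LIF*, *IFNB1*, *IL2* and *IFNA1*, which lay between -0.01 and 0.02 and were not called. *IL17A* and *TNFSF8*, which are not on it, had -0.08 and -0.13 and were not called either.

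Named probes exist for few cell type markers. Of 13 markers of granulosa and cumulus cells 3 were tested, and each was well above background in all 12 channels. *FSHR*, the FSH receptor, had direct ratios of -0.70, -0.33 and -0.47 and fell by 0.44 (SE 0.08, adjusted p = 0.0033). Its call was lost without replicate 1 (-0.33, adjusted p = 0.0148), without replicate 3 (-0.46, adjusted p = 0.0403) and with the replicate block (-0.44, adjusted p = 0.0132), in a range of 0.000771 to 0.346. *INHA*, the alpha subunit of inhibin, had -0.57, -0.60 and -0.10 and a fit of -0.48 (SE 0.19, adjusted p = 0.0901). Without replicate 3 it was called (-0.62, adjusted p = 0.00255, the lowest of its alternatives, against a highest of 0.501). *FST*, whose fall is given above, was the only member of the 3 that the study paired. With it 2 of the 3 were called lower (10.3% of all probes were), with a median of -0.48. *BMP15*, the only one of 16 oocyte markers with a named probe, had 0.10 (SE 0.05, adjusted p = 0.146). The leukocyte marker *CD4* had 0.14 (SE 0.04, adjusted p = 0.0274). The 5 theca and luteal and the 8 endothelial and erythroid markers have no named probe here, and the part of such cells in the results was not tested.

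The ratio could be read by 2 routes, from the direct arrays and from the difference of the ratios to FSH on the other 6. Both routes use the same RNA samples, so they are not independent. Each route alone called fewer transcripts than the full fit, at the same rule. Among genes whose calls held without each replicate, those of *FOS*, *ID1*, *ITPKA*, *MARCKSL1*, *AVPR2*, *PAQR8* and *PRDX2* were lost on the direct arrays alone. On the indirect arrays alone those of *ANXA1*, *SDC1*, *IRS1*, *ODC1*, *GADD45A*, *PCNA*, *PNRC1*, *ABCC5*, *AVPR2*, *PAQR8* and *PRDX2* were lost, and with separate channels those of *ANXA2*, *UAP1*, *PPARG*, *PCNA*, *ABCC5*, *AVPR2* and *PRDX2*, beside the genes for which this is stated above. None of these values changed sign. Past 1.5 the counts were 116 and 120, close to the 139 of the full fit. *TNFRSF12A* had 2.73 directly and 3.24 indirectly, *SDC1* 2.72 and 2.81, *JUN* -4.32 and -4.74, and *RGS3* -2.80 and -3.04. *SBSN* had 2.64 and 1.90 over 7 arrays. A dye effect was called at 212 of 19509 probes (1.09%), and 0 of them passed 1 on the log2 scale.

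**Figure D4:**
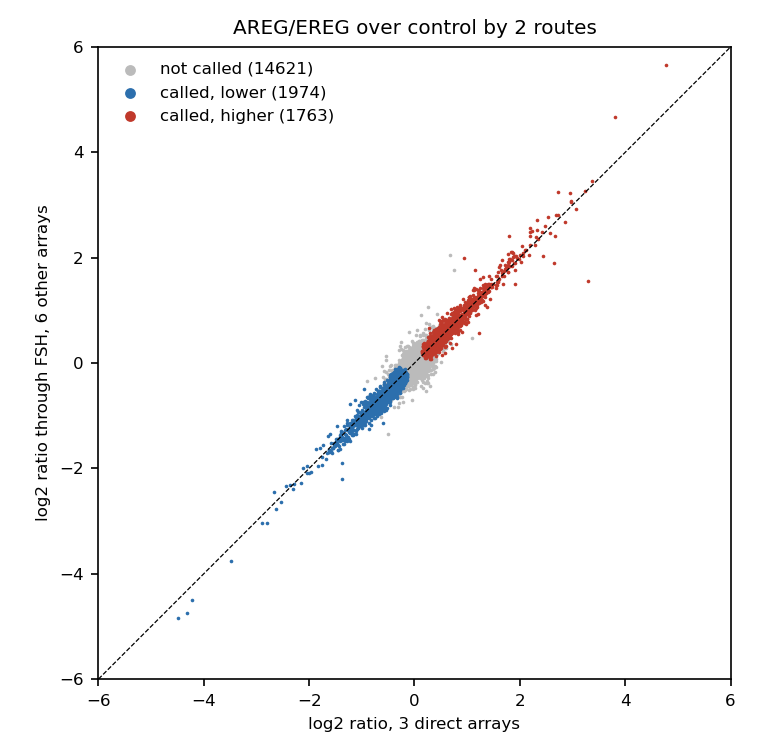
Log2 ratio of AREG/EREG over control from the 3 direct arrays (horizontal axis) against that through FSH from the 6 other arrays (vertical axis), for 18358 probes with both. Colours are the calls of the full fit, and the dashed line marks equal values. *JUN* lies near the lower left corner, at -4.32 and -4.74.

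Most of the strongest changes belong to probes without a name. The largest unnamed rise had direct ratios of 4.02, 3.52 and 4.14 and a fit of 4.17 (SE 0.18, adjusted p = 6.32e-07). The largest fall of any probe, also unnamed, showed -4.29, -4.53 and -4.63 on the direct arrays. The files pair neither probe with a gene.

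The array carries versions of 60 probes with 1, 2, 3, 5, 7 or 10 mismatched bases, of which 10 probes were called. For these 10 the median version kept 0.87 of the probe's log2 change at 1 mismatch, 0.92 at 2, 0.91 at 3, 0.63 at 5, 0.52 at 7 and 0.32 at 10. The 1 named probe among them is that of *CYP11A1*. Against its own 2.53, its versions had log2 fold changes of 2.43, 2.31, 2.46, 2.31, 2.77 and 0.94 from 1 to 10 mismatches. To which transcripts the probes bound was not tested.

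**Figure D5:**
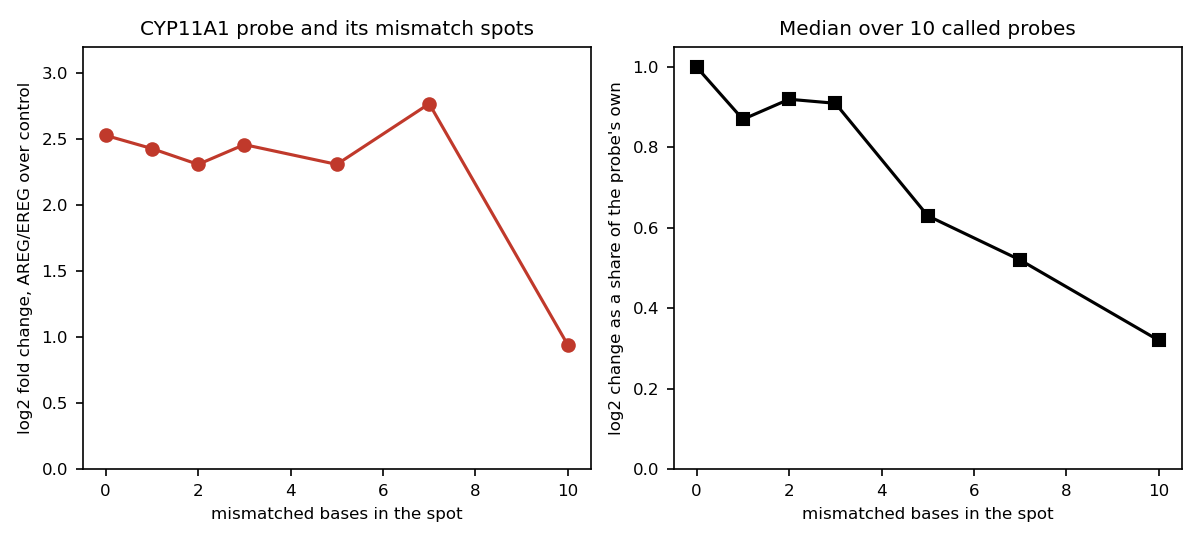
Log2 fold change of AREG/EREG over control for the *CYP11A1* probe (0 mismatched bases) and its mismatch spots (left), and the median share of the log2 change that mismatch spots of the 10 called probes kept (right). The *CYP11A1* spots stay between 2.31 and 2.77 up to 7 mismatched bases and drop to 0.94 at 10.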

How the data were processed

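The authors scanned 9 arrays and deposited, per spot and dye, the median, background and Agilent-processed intensity, and a table of normalized log2 ratios of red to green, which correlated with those computed here with r from 0.998 to 0.999 and served only as an alternative. As in the paper, background was removed from the median signals by normexp (offset 50, not stated there), followed by print-tip loess in 48 subgrids and A-quantile scaling, in limma 3.58.1 under R 4.3.3. Outlier and control spots were left out, and repeat spots of 37 probes averaged. One linear model over all 9 arrays held the treatments plus a dye term, and adjusted p-values are Benjamini-Hochberg values of limma's moderated test over 19495 probes. For 446 probes the arrays left could not estimate the ratio. The model was tried on simulated data with independent noise on each array. That run had no noise shared by arrays of 1 RNA sample, so it cannot test the p-values in that respect.

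The replicate numbers pair the samples. Deviations from treatment means correlated with r from 0.183 to 0.719 in 9 pairs of equal number and from -0.709 to 0.539 in 18 pairs of unequal number, over 12451 probes. Equal numbers share arrays, which adds to this. The labels call the samples biological replicates but name no animals, and the COCs were pooled, so the replicates are pools. Each RNA sample was on 2 arrays and the model has no sample term, so p-values measure array noise and the spread between pools together. The number of pools, 3 per treatment, limits the precision, as does the number of arrays. Replicate 1 was scanned on one day, replicates 2 and 3 on another.

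Names came from the study's own pairing, then from RefSeq accessions in a table of assembly Sscrofa11.1, which named 182 of 195. The genes in the text are the 15 largest named rises and falls of 1 sign in all replicates, up to 4 members per list by adjusted p, all members of the EGF receptor and marker lists, all genes the study listed for this comparison, and the extreme unnamed probes. Further uncalled list members, *SDC4*, *CEBPB* and RefSeq-named genes were added after their values were seen. A few genes are left out of this account, of its lists and of their counts. Members, lists and the other choices were made with earlier results of these data known. Alternatives changed the background correction, normalization, outlier spots, filter, dye term, replicate block, channels, arrays, signals and replicates.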

Additional observations from a re-analysis of the deposited data

Results flagged for a closer look

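Control spots lie outside the comparison, and some of their signals differed between treatments. The *CYP11A1* probe versions had log2 fold changes of 2.43, 2.31, 2.46, 2.31, 2.77 and 0.94 at 1, 2, 3, 5, 7 and 10 mismatched bases, against 2.53 for the matching probe. For the 10 called probes that have such versions, the version had the sign of its probe for 10 of 10 at 1, 2 and 3 mismatches, 9 at 5, 8 at 7 and 9 at 10. Of 59 negative control spots tested, 1 rose, by 1.10 (SE 0.13, limma adjusted p = 0.000665 over the control spots), while the median of these spots was 0.00 and 0 of 322 blank spots tested passed the same rule.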

How the results depend on the processing

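Among the 68 named genes run under the alternatives, no value changed sign where either value was called. Of the 45 calls among genes named above and tested in these settings, 12 were lost without at least 1 replicate (6 without replicate 1, 6 without replicate 2 and 10 without replicate 3) and 5 with the replicate block, and the block changed no other of these calls. The 68 genes had 1415 values under the alternatives, of which 101 lost a call, 4 gained one and 1296 kept theirs or, for replicate 1 alone, the first scan day, which allows no test, stayed within the SD between replicates. The other 14 values of replicate 1 moved by more. Leaving out the scaling between arrays could not change a call, because A-quantile scaling leaves the log2 ratios as they are. Its values are among the 1296 by construction. The fit within the second scan day is the same as that without replicate 1, so its values are counted under both. Most losses came from separate channels (22), which average the channels of each RNA sample and do not use which samples shared an array, indirect arrays only (24) and direct arrays only (17). The authors' deposited log2 ratios and median centring, among others, lost none.

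The 3822 transcripts became 2323 with the replicate block, 388 with separate channels (3241 at an unadjusted p under 0.05), 506 with direct arrays only, 543 with indirect arrays only and 2544 within the second scan day. Leaving out a replicate gave 1591 to 2544. The 139 past 1.5 became 216 with Agilent processed signals and 192 with a normexp offset of 0, and stayed within 1.5 times of 139 elsewhere. Upward calls were 56.9% with direct arrays only and 53.3% without replicate 2, against 47.3%. The cause was not tested. The search of promoter sequences was not run, and no sequences are given.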
